A study of Homo sapiens with 12 samples.

Results

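Protein-protected RNA was examined in 10 human genes that encode ribosomal proteins: RPL24, RPLP0, RPL3, RPL13A, RPL4 and RPL5 of the large ribosomal subunit, and RPS6, RPS2, RPSA and RPS3 of the small subunit. A protected site was assigned to a gene when its midpoint lay inside the gene's span in build hg19 on the gene's strand. This gave 688 of the 513381 sites in 6 replicate lists, with 172, 62 and 124 sites in the ssRNase lists and 106, 118 and 106 sites in the dsRNase lists (replicates 1, 2 and 3 in each case). The genes were chosen on the sites they hold in these lists, so the number of sites and the bases they cover are given as a description, without a test. In hg19 the large-subunit spans are RPL24 at chr3:101399934-101405563, RPLP0 at chr12:120634489-120639038, RPL3 at chr22:39708887-39715670 and RPL4 at chr15:66790800-66797221 on the minus strand, and RPL13A at chr19:49990694-49995565 and RPL5 at chr1:93297594-93307481 on the plus strand. The small-subunit spans are RPS6 at chr9:19375700-19380236 and RPS2 at chr16:2012062-2014827 on the minus strand, and RPSA at chr3:39448180-39454033 and RPS3 at chr11:75110500-75117000 on the plus strand.

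The lists come from protein interaction profile sequencing in HEK293T, an established human embryonic kidney cell line. Cells were cross-linked with 1% formaldehyde for 10 minutes and the lysate was digested either with an enzyme that attacks unpaired RNA (ssRNase, RNase ONE) or with an enzyme that attacks base-paired RNA (dsRNase, RNase V1). Cross-links were later reversed by heat. With 3 libraries in each of 4 groups, 12 in all, the study holds ssRNase footprints, dsRNase footprints, and for each nuclease a digestion control in which protein was removed before the nuclease was added. Each list holds the sites the authors called in 1 footprint library by setting it against its own digestion control. The ssRNase lists held 57481 to 209922 sites and the dsRNase lists 21561 to 28413. The minus strand carried 54.8% to 60.9% of the site bases in the ssRNase lists and 64.5% to 78.5% in the dsRNase lists. The files hold no read counts, so depth is unknown, and no RNA level, so a more abundant RNA and a better protected one cannot be told apart. Nothing in the labels says that replicates were separate cultures, and the spread between them may be technical.

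Ribosomal protein mRNAs are among the most abundant and most translated mRNAs of a growing cell. Their transcripts typically begin with a cytidine followed by an unbroken run of pyrimidines, the terminal oligopyrimidine tract, through which the mTOR pathway and the RNA-binding protein LARP1 control their translation. Many of these genes also carry small nucleolar RNAs (snoRNAs) in their introns, which are released from the spliced intron and guide the modification of ribosomal RNA.

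The starts of the transcripts are shown because the tract is a feature of the family. It was not read from the site lists. RefSeq's table for build GRCh38.p14 holds a start for 8 of the 10 genes. Each line gives 12 bases before the annotated start and 18 from it, 5′ to 3′, with the pyrimidine run that begins with C at the start in capitals.
RPL24: ccatgattctctCTTTCTTTTCgccatctt
RPLP0: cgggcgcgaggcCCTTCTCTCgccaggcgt
RPL3: aggccgaccggcCTCTaccggcgggatttg
RPS6: cggaagttggccCTCTTTTCCgtggcgcct
RPL13A: caaaacctcctcCTTTTCCaagcggctgcc
RPSA: cctgccgcctgtCTTTTCCgtgctacctgc
RPS3: cgcgagccacttCCTTTCCTTTCagcggag
RPL4: agcgggagtggtaagcacttccttttcctg
In GRCh38.p14 these lie at chr3:101686701-101686730 (RPL24), chr12:120201094-120201123 (RPLP0), chr22:39319606-39319635 (RPL3), chr9:19380219-19380248 (RPS6) and chr15:66504838-66504867 (RPL4) on the minus strand. On the plus strand they lie at chr19:49487596-49487625 (RPL13A), chr3:39406708-39406737 (RPSA) and chr11:75399506-75399535 (RPS3).
In 6 of these 8 the start is C followed by at least 4 letters that are each C or T, read on the gene's strand at the annotated start only. The same holds for 1429 of 35116 starts in the whole table (4.07%). All the genes belong to the family known for the tract, so this contrast is tied to that choice. It says nothing about the protected sites. The run was 4 to 11 bases long in the 7 genes that start with C. RPL3 has a run of 4 and RPL4 starts with A.

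The clearest feature of the 10 genes was their large share of the dsRNase lists. Site bases in a gene were expressed per 1000000 site bases of the list (ppm), since the lists differ in length. This scales for list length, and whether it removes all effect of length was not tested. Of the ssRNase lists, the shortest (replicate 2) had the highest share, but the longest (replicate 1) lay above replicate 3. Together the genes took 779, 931 and 682 ppm in the ssRNase lists, against 4294, 4508 and 5375 ppm in the dsRNase lists. The means were 797 ± 126 ppm with ssRNase and 4726 ± 572 ppm with dsRNase (SD, n = 3 lists each). Each of the 10 genes had a lower share in every ssRNase list than in any dsRNase list. Among 31418 stranded windows of 10000 bp with a site in at least 3 lists, 9.54% were separated in this direction and 40.2% in the opposite one. All 10 genes had sites in at least 3 lists. Among 20983 windows with a site of each nuclease, a background chosen after seeing the data, 14.0% were separated in this direction. The windows are not matched to the genes in site content. The median of the mean shares over the 31418 windows was 18.3 ppm with ssRNase and 12.5 ppm with dsRNase. Over the 10 genes it was 84.3 and 463 ppm.

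Of the large-subunit genes, RPL24, whose protein sits at the interface of the subunits, was nearly absent with ssRNase. It took 15.8, 0 and 0 ppm in the ssRNase lists, against 390, 360 and 592 ppm in the dsRNase lists. RPL4, whose protein lines the tunnel through which the new peptide leaves, had the highest mean share of all with dsRNase. It took 87.3, 149 and 70.7 ppm in the ssRNase lists, against 987, 875 and 1114 ppm in the dsRNase lists. For RPL3, which helps to shape the peptidyl transferase centre, the shares were 111, 169 and 113 ppm with ssRNase and 667, 782 and 822 ppm with dsRNase. The lowest dsRNase value of RPL3 and RPL4 thus lay far above their highest ssRNase value.

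RPL13A, also known for its part in silencing inflammatory mRNAs, took 129, 150 and 99.0 ppm in the ssRNase lists and 408, 562 and 469 ppm in the dsRNase lists. RPL5, which binds the small ribosomal RNA of the large subunit and can bind MDM2, took 84.6, 47.0 and 107 ppm with ssRNase and 238, 319 and 506 ppm with dsRNase. RPLP0, the base of the stalk that recruits translation factors, took 48.7, 33.6 and 50.6 ppm with ssRNase and 138, 310 and 195 ppm with dsRNase. In RPL5 and RPLP0 the highest dsRNase list was more than 2 times the lowest.

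Of the small-subunit genes, RPS6, a target of the S6 kinases below mTOR, came closest to RPL24. It took 33.3, 0 and 28.1 ppm in the ssRNase lists, against 619, 436 and 468 ppm in the dsRNase lists. For RPS2, a protein near the mRNA entry site, the shares were 74.8, 199.7 and 85.3 ppm with ssRNase and 498, 474 and 655 ppm with dsRNase. The narrowest gaps were those of RPS3 and RPSA. RPS3, which lines the mRNA entry channel, took 98.2, 101 and 63.1 ppm with ssRNase and 186, 225 and 318 ppm with dsRNase. RPSA, known also as a laminin receptor, took 96.3, 82.0 and 65.3 ppm with ssRNase and 163, 165 and 235 ppm with dsRNase.

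The ssRNase mean divided by the dsRNase mean had a median of 0.214 over the 10 genes. It was 0.0118 in RPL24, 0.0403 in RPS6 and 0.103 in RPL4, and highest in RPSA at 0.432. The median difference (ssRNase minus dsRNase) was -388 ppm over the 10 genes. Over the 31418 windows it was 7.53 ppm, and over the 20983 with a site of each nuclease it was -6.25 ppm, so its sign at large depends on the windows taken.

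**Figure D1:**
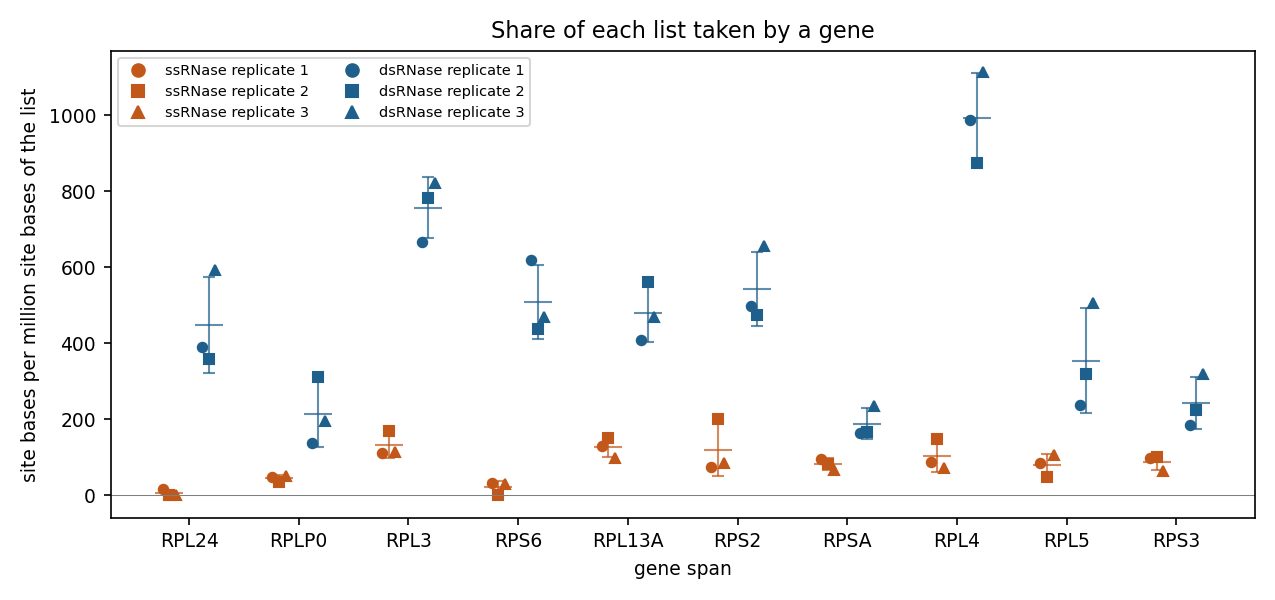
Site bases in parts per 1000000 site bases of the list (ppm) for each gene, by list; points are lists, horizontal ticks and bars the mean ± SD of 3 lists. In every gene the 3 ssRNase points lie below the 3 dsRNase points, with the widest gap in RPL4 and the narrowest in RPSA.

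Since the dsRNase lists lean to the minus strand, the strand of the genes was considered. The 6 minus-strand genes (RPL24, RPLP0, RPL3, RPS6, RPS2 and RPL4) had a median ratio of ssRNase to dsRNase share of 0.138, and the 4 plus-strand genes one of 0.312. On the minus strand 12.7% of windows were separated with ssRNase lower, and on the plus strand 5.26%. With site bases set against the bases of the gene's own strand only, an alternative chosen after seeing the data, the ratios were 0.170 in minus-strand and 0.198 in plus-strand genes. All 10 genes remained separated on that scale, as did 9.06% of windows.

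In bases rather than shares the picture was mixed. Sites covered 13.7%, 4.70% and 9.55% of the 57804 nt of the 10 spans in the ssRNase lists, against 6.12%, 7.64% and 7.43% in the dsRNase lists. RPS2, RPSA and RPS3 were covered more in every ssRNase list than in any dsRNase list, and 67.9% of windows were too. RPL24 and RPS6 were covered less in every ssRNase list than in any dsRNase list, which held for 0.458% of windows. The windows were far sparser, at a median of mean coverage of 1.27% with ssRNase and 0.11% with dsRNase. For the 10 genes it was 9.55% and 7.71%. In the other 5 genes the lists overlapped. These counts depend on the lengths of the lists. With 21561 sites drawn from every list, no gene was covered more and 8 genes were covered less in every ssRNase list than in any dsRNase list. The mean differences of RPS2, RPSA and RPS3 then turned to -10.9, -0.898 and -1.27 percentage points (ssRNase minus dsRNase). The draw removes most sites of the longer ssRNase lists, so this outcome was set by construction. Without ssRNase replicate 2, the shortest ssRNase list, 7 genes were covered more with ssRNase. No share of windows is at hand for equal draws or with a list left out. These counts are therefore not read as particular to the genes.

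RPL24 was covered over 2.86%, 0% and 0% of its span in the ssRNase lists and over 5.70%, 6.25% and 8.40% in the dsRNase lists. For RPS6 coverage was 7.47%, 0% and 5.03% with ssRNase and 11.2%, 9.41% and 8.24% with dsRNase. Both genes thus had more protected bases in the dsRNase lists, although those lists are the shorter ones. RPL4 came next: its ssRNase coverage of 13.9%, 6.74% and 8.92% stood against an even 12.7%, 13.3% and 13.9% with dsRNase. RPS2 lay at the other end, with 27.5%, 21.0% and 25.0% in the ssRNase lists and 14.8%, 16.8% and 18.9% in the dsRNase lists. RPSA was covered over 16.8%, 4.08% and 9.04% with ssRNase and over 2.29%, 2.77% and 3.21% with dsRNase. RPS3 had 15.4%, 4.54% and 7.86% with ssRNase and 2.35%, 3.38% and 3.91% with dsRNase.

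The order of the genes per length differed between the nucleases. Mean coverage with ssRNase ran from RPS2 (24.5%) through RPL13A (17.5%), RPL3 (12.5%), RPSA (9.96%), RPL4 (9.84%), RPS3 (9.27%), RPLP0 (7.36%), RPL5 (6.28%) and RPS6 (4.17%) to RPL24 (0.953%). The ranges of each pair of neighbours in that order overlapped. With dsRNase it ran from RPS2 (16.8%) through RPL4 (13.3%), RPL3 (9.69%), RPS6 (9.63%), RPL13A (8.63%), RPL24 (6.79%), RPLP0 (4.21%), RPS3 (3.21%) and RPL5 (3.07%) to RPSA (2.76%). There RPS2 lay above RPL4 and RPL4 above RPL3 in all lists, and the other neighbours overlapped. Spans include introns, and the part of intron length in these orders was not tested.

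**Figure D2:**
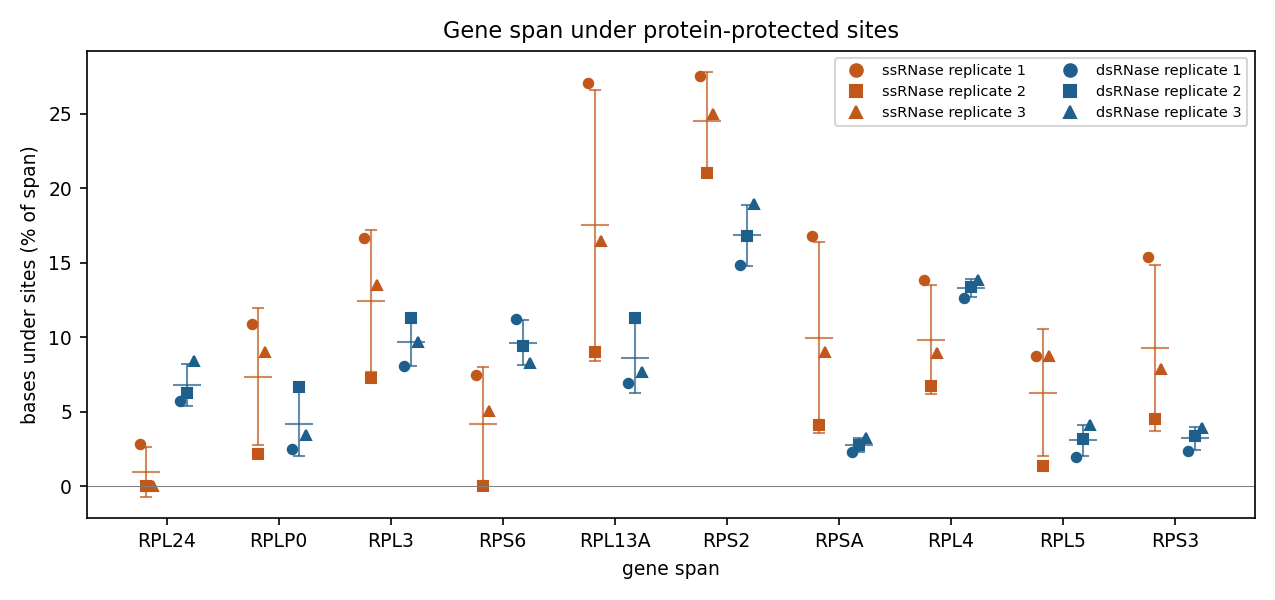
Percent of each gene span under sites, by list; points are lists, horizontal ticks and bars the mean ± SD of 3 lists. RPL24 and RPS6 have all ssRNase points below the dsRNase points, RPS2, RPSA and RPS3 all above, and in most genes ssRNase replicate 2 is the lowest ssRNase point.

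Nearly all site bases in the spans lay on the gene's strand. The genes were chosen on sites of that strand, so this was largely set by the choice. On the opposite strand of the spans only 4 sites were listed, all in RPS2 and all with ssRNase (1, 1 and 2 per list). The gene strand carried 99.5%, 98.4% and 98.6% of the site bases in the spans with ssRNase and 100% in each dsRNase list. Any difference between the nucleases here rests on those 4 sites of RPS2. The difference of -1.19 percentage points (ssRNase minus dsRNase) had a two-sided exact permutation p of 0.1. With 3 lists a group no test of this kind can give a p below 0.1, and adjusted over the 4 values tested it was 0.133.

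Sites were sparse around the spans on the same strand. Since the genes were chosen on sites inside their spans, the contrast with the flanks was largely set by that choice. In the 5000 nt upstream the median coverage over the 10 genes was 0% in all 6 lists. In the 5000 nt downstream it was 0.72%, 0% and 0.72% with ssRNase and 0% in each dsRNase list. Coverage inside exceeded both flanks in 9, 8 and 9 genes with ssRNase and in all 10 genes in each dsRNase list.

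Sites were longer with ssRNase. The median site length in the 10 genes was 42, 39 and 39 nt in the ssRNase lists and 26.5, 33 and 36 nt in the dsRNase lists. The means were 40.0 ± 1.73 nt and 31.8 ± 4.86 nt (SD, n = 3 each), a difference of 8.17 nt (two-sided exact permutation p = 0.1, adjusted p = 0.133). Over whole lists the median was 43, 44 and 42 nt with ssRNase and 33, 33 and 34 nt with dsRNase. Single sites in the genes spanned 2 to 150 nt.

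Sites of the dsRNase lists lay nearer to the 3′ end. Relative position was scored from 0 at the 5′ end of a span to 1 at its 3′ end and averaged within and then over the genes with a site in the list. These were 10, 8 and 9 genes in the ssRNase lists, where RPL24 and RPS6 can be empty, and 10 in each dsRNase list. It was 0.496, 0.491 and 0.508 with ssRNase and 0.590, 0.550 and 0.548 with dsRNase. The groups did not overlap and the means differed by -0.0638 (ssRNase minus dsRNase; two-sided exact permutation p = 0.1, adjusted p = 0.133). Over the 8 genes with a site in all 6 lists, an alternative chosen after seeing the data, the difference was -0.0638 as well.

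Coverage near the ends was compared next. The first 500 nt of the spans were covered over 14.0%, 5.94% and 10.3% in the ssRNase lists and over 1.40%, 2.02% and 4.36% in the dsRNase lists, as means of the 10 genes. RPL3, RPL4 and RPL13A had mean coverage of 20.1%, 11.7% and 8.33% there with ssRNase and none with dsRNase. In all, 7 genes had a higher mean with ssRNase. RPL24 was the exception, at 4.33% with ssRNase (13%, 0% and 0%) and 6.4% with dsRNase (2.6%, 0% and 16.6%), so its lists overlapped. RPS6 and RPS3 had no site base in the first 500 nt with either nuclease. In the last 500 nt coverage was 13.8%, 2.82% and 7.40% with ssRNase and 8.06%, 10.5% and 8.48% with dsRNase, and the lists overlapped. RPS2 was the most covered there, with a mean of 24.1% with ssRNase and 37.9% with dsRNase. RPL24 had 0% with ssRNase and 18.5% with dsRNase in that stretch. Between these end stretches the spans were covered over 14.6%, 5.92% and 10.6% with ssRNase and over 7.16%, 8.56% and 8.28% with dsRNase. The first 500 nt were thus close to the rest of the span with ssRNase and below it with dsRNase.

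**Figure D3:**
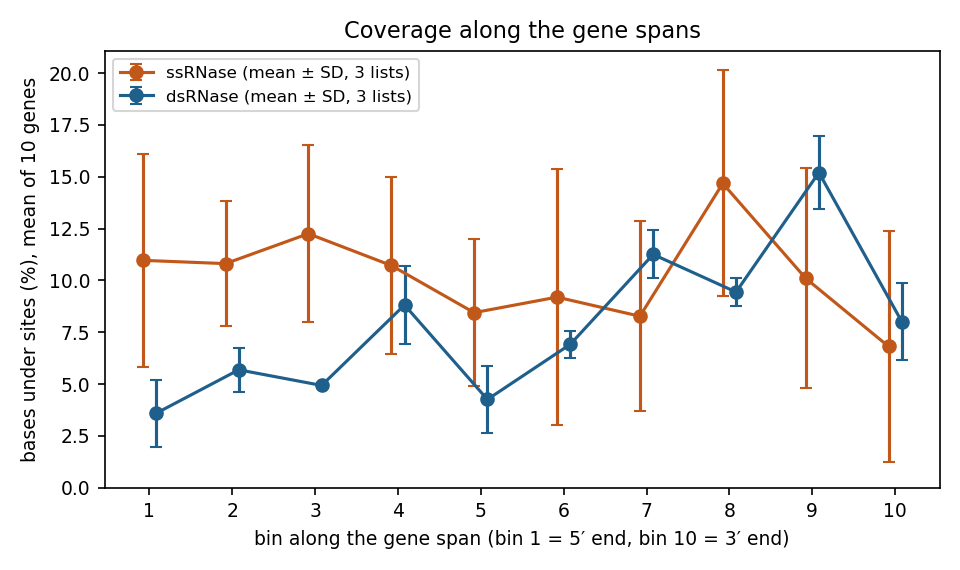
Percent of bases under sites in 10 equal bins along the gene spans, as the mean of 10 genes; points and bars are the mean ± SD of 3 lists. The dsRNase line is at 3.59% in bin 1 and peaks at 15.2% in bin 9, while the ssRNase line is at 11.0% in bin 1 and 10.1% in bin 9, with wide bars.

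Of the sites in the genes, 57.0%, 90.3% and 75.8% overlapped a site of another list of the same nuclease by at least 1 nt with ssRNase, and 82.1%, 78.0% and 84.0% with dsRNase. The difference of -6.97 percentage points (ssRNase less dsRNase) lay within the spread of the ssRNase lists (two-sided exact permutation p = 0.7, adjusted p = 0.7), and it turned to 3.63, 6.92 and 7.12 percentage points without dsRNase replicate 1, 2 or 3. Among the ssRNase lists recurrence moved with list length, being highest in the shortest and lowest in the longest. With 21561 sites drawn from every list the difference was -61.3 percentage points (two-sided exact permutation p = 0.1). The draw thins the long ssRNase lists and leaves the dsRNase lists nearly whole. Thinned lists share few sites, so this value was largely set in advance and is no evidence of a difference. Over whole lists the shares were 52.8%, 89.9% and 62.2% with ssRNase and 51.4%, 47.9% and 54.9% with dsRNase. The dsRNase sites of these genes thus recurred more often than dsRNase sites at large in each of the 3 lists. The genes were chosen on their sites in these lists, and the lists at large are not matched in site density. This contrast may therefore be partly set by the choice.

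The match between the nucleases differed from the lists at large. Of the ssRNase sites in the genes, 40.1%, 51.6% and 39.5% overlapped a site of any dsRNase list, against 15.1%, 23.2% and 15.4% of all ssRNase sites. Of the dsRNase sites in the genes, 48.1%, 46.6% and 48.1% overlapped a site of any ssRNase list, against 73.9%, 75.5% and 76.6% of all dsRNase sites. These genes therefore held fewer dsRNase sites with an ssRNase partner than the dsRNase lists as a whole. These shares depend on the lengths of the lists searched and carry no test.

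The authors' list merged over both nucleases names the replicate sites behind each merged site. It held 273 sites in the 10 genes. Of these 128 (46.9%) came from ssRNase lists alone, 82 (30.0%) from dsRNase lists alone and 63 (23.1%) from both. In the whole merged list of 293016 sites 83.4% came from ssRNase alone, 4.57% from dsRNase alone and 12% from both. Sites present in all 3 dsRNase lists and no ssRNase list numbered 26 in the genes (9.52%), against 894 in the whole list (0.305%). The reverse, all 3 ssRNase lists and no dsRNase list, was found for 20 sites in the genes (7.33%) and for 9.05% of the whole list. The whole list is not matched to these chosen genes in site density, so these shares are description only.

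These 26 dsRNase sites lay in 8 genes. RPS6 held 7, RPL4 held 6, RPL24 held 4 and RPL3 held 3, and none lay in RPLP0 or RPSA. In RPL24 they made up 4 of its 8 merged sites, and the longest of them spanned 130 nt on the minus strand, at chr3:101404664-101404793, from base 771 of the span. Another of 105 nt lay close to the 3′ end of the RPL24 span, at chr3:101399992-101400096. In RPS6 the longest was 78 nt long and lay at chr9:19378732-19378809. In RPL4 a site of 143 nt at chr15:66793303-66793445 joined 6 replicate sites.

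**Figure D4:**
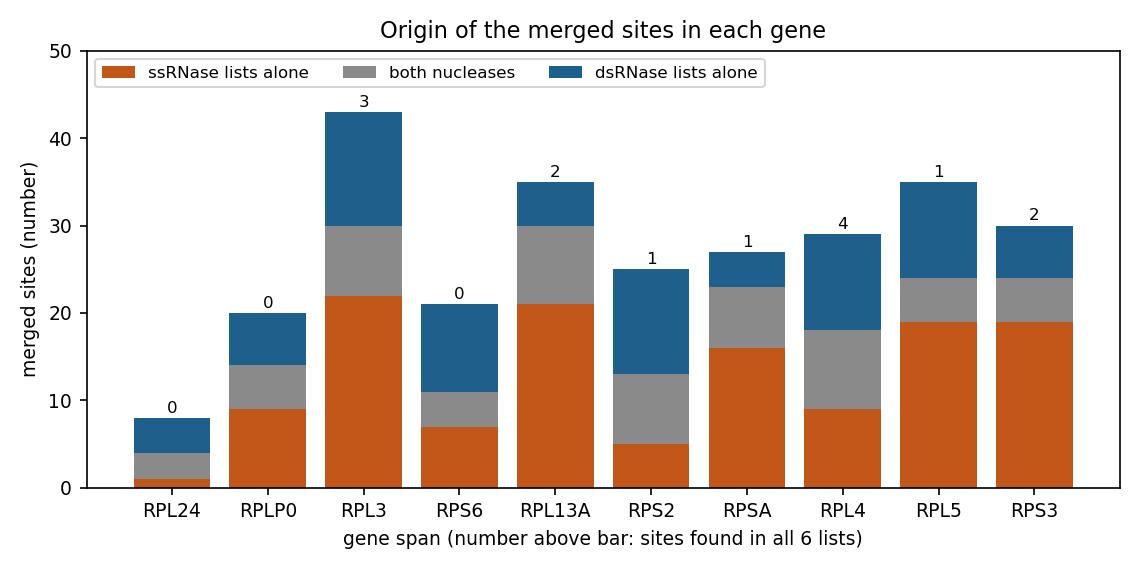
Number of merged sites in each gene that came from ssRNase lists alone, from both nucleases or from dsRNase lists alone; the number above a bar counts sites found in all 6 lists. RPL3 has the most merged sites (43) and RPL24 the fewest (8), and RPL24, RPLP0 and RPS6 have none found in all 6 lists.

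A site in all 6 lists was found 14 times, in 5.13% of the merged sites of the genes and 0.696% of the whole list. Here too the genes were chosen on their sites, and the whole list is not matched in density. RPL4, RPL3 and the other genes below are those that held such sites. RPL4 held 4, RPL3 held 3, RPL13A and RPS3 held 2 each, and RPS2, RPSA and RPL5 held 1 each. They were 62 to 197 nt long, and each reaches from the first to the last base of the replicate sites joined in it. RPL24, RPLP0 and RPS6 had none. GENCODE release 29, on GRCh38, lists snoRNA genes on the same strand inside 7 of the 10 genes, and these are the 7 genes with a site in all 6 lists. The 3 genes without one are RPL24, RPLP0 and RPS6. This match was noticed after the sites had been counted, and it was partly fixed in advance. RPL24 had no site in ssRNase replicates 2 and 3 and RPS6 none in ssRNase replicate 2, so neither could have a site in all 6 lists. RPLP0 had only 3 sites in ssRNase replicate 2. Because the annotation is on another build than the lists, positions of sites and snoRNAs were not compared.

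In RPL3 the annotation lists SNORD83A, SNORD83B and SNORD43, with lengths of 95, 93 and 64 nt. The site of all 6 lists at chr22:39711196-39711313 had the same first base, 4361 nt from the 5′ end of the span, and the same length of 91 nt in all 3 dsRNase lists. In ssRNase replicates 2 and 3 it began at that base too and spanned 74 and 98 nt, and in replicate 1 a site of 77 nt began at base 4358 and another of 27 nt at base 4449. At chr22:39709721-39709917 the dsRNase lists had sites of 89, 98 and 89 nt that all began at base 5757. The ssRNase sites at that edge began at base 5754, 5757 and 5757 and spanned 78, 72 and 74 nt. Further sites lay inside the same merged site: each dsRNase list had another, beginning at base 5910, 5904 and 5911, and ssRNase replicates 1 and 3 had others of 31 and 93 nt, beginning at base 5842 and 5837. The third RPL3 site, at chr22:39715025-39715141, differed in shape. Its dsRNase sites began at base 553 in each list and spanned 62, 67 and 68 nt, while each ssRNase list had a pair of shorter sites there.

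In RPL4 the annotation lists SNORD16, SNORD18A, SNORD18B, SNORD18C and an unnamed family member of 71 nt, and the named ones are 69 to 99 nt long. The 4 RPL4 sites of all 6 lists spanned 104, 109, 121 and 115 nt, in the order of their hg19 starts 66793553, 66794332, 66795144 and 66795538 on chromosome 15. At chr15:66794332-66794440 the dsRNase sites all began at base 2793 and spanned 86, 81 and 82 nt. At chr15:66795144-66795264 each dsRNase list held a pair of sites of 30 to 43 nt with a gap between them. The single ssRNase replicate 1 site of 106 nt bridged that gap, while ssRNase replicates 2 and 3 were split as well.

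The other genes with a site of this kind had shared edges in part. In RPS3, host of SNORD15A and SNORD15B (148 and 146 nt), the site at chr11:75115464-75115614 was 151 nt long. Each dsRNase list held a pair of sites in it, of 15, 15 and 36 nt from base 4966 and of 37, 18 and 38 nt from base 5074, 5075 and 5074. The ssRNase lists held a single site each, of 150, 83 and 89 nt, beginning at base 4965, 5033 and 5024. The other RPS3 site, at chr11:75111428-75111489, was 61 nt long in each ssRNase list and 6, 7 and 13 nt in the dsRNase lists. In RPL5, host of SNORD21 and SNORA66, the site at chr1:93302827-93302956 consisted of a pair of dsRNase sites in each list, the first beginning at base 5254 and 23, 22 and 24 nt long. In RPSA, host of SNORA6 and SNORA62, the site at chr3:39449904-39450020 was 105, 70 and 103 nt long in the ssRNase lists and was 26 to 48 nt per piece in the dsRNase lists. RPS2, host of SNORA10 and SNORA64, had its site at chr16:2012295-2012469, and RPL13A, host of SNORD32A, SNORD33, SNORD34 and SNORD35A, had its longer one at chr19:49994397-49994531.

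In the 3 genes without such a site the merged site with the most lists came from 4 or 5 of the 6. RPLP0 had 1 at chr12:120638559-120638694, 136 nt long, with sites from all 3 ssRNase lists and 2 dsRNase lists. In RPL24 the site at chr3:101401605-101401683 and in RPS6 the site at chr9:19376592-19376672 came from 3 dsRNase lists and 1 ssRNase list each.

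**Figure D5:**
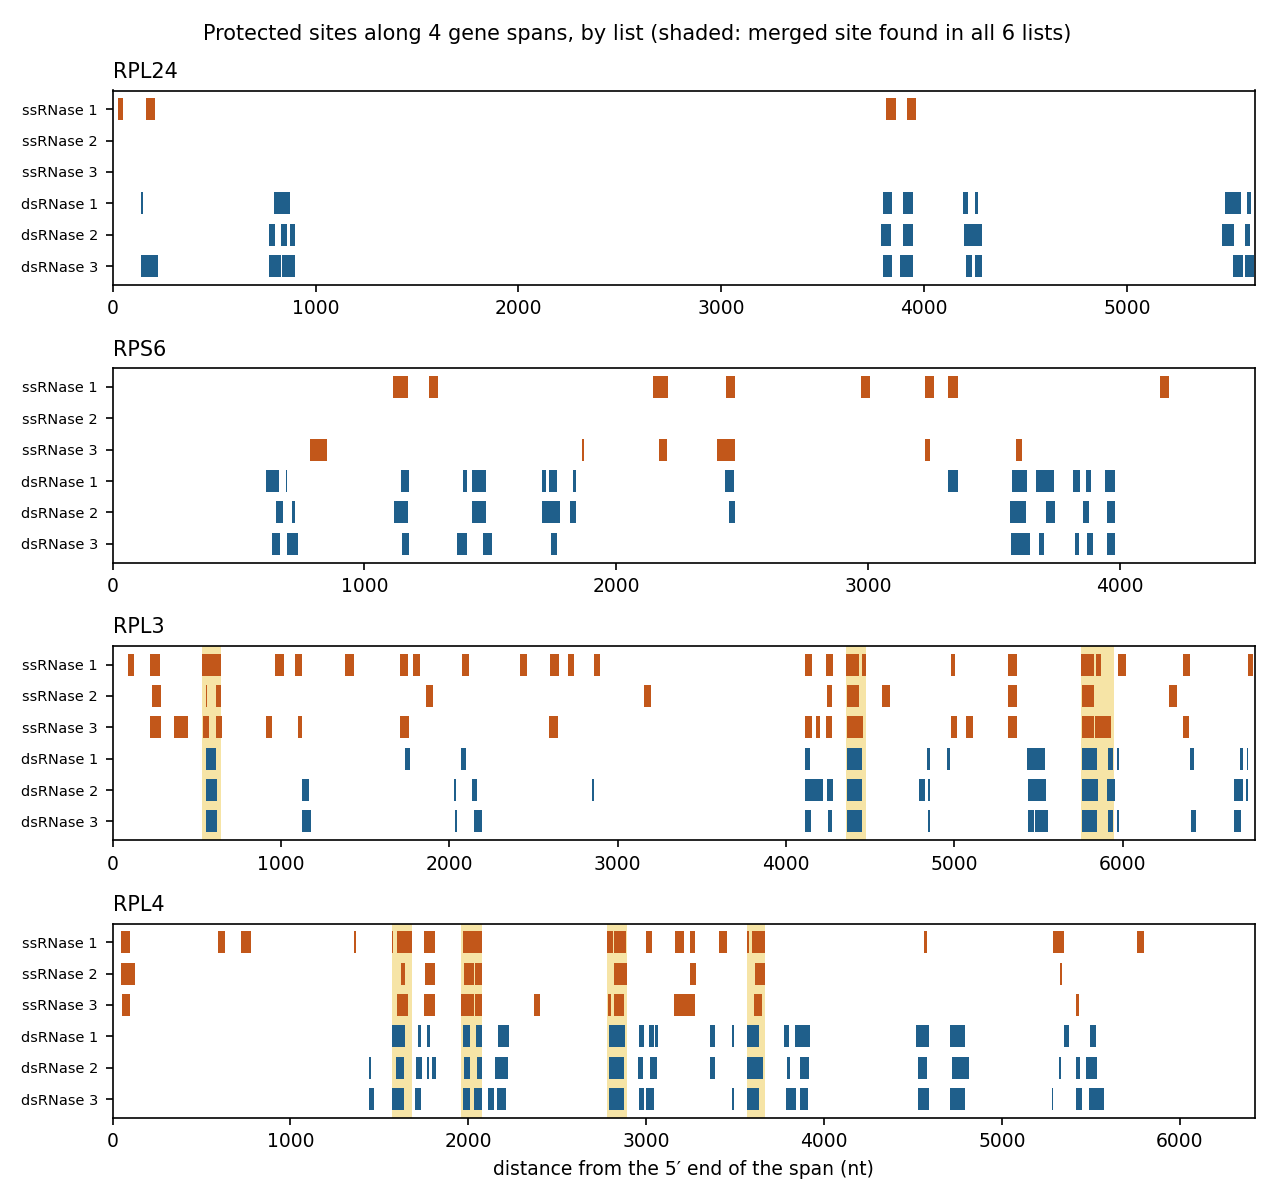
Protected sites along RPL24, RPS6, RPL3 and RPL4, drawn to scale from the 5′ end of each span, with 1 row per list and the ssRNase lists above the dsRNase lists; shading marks merged sites found in all 6 lists. RPL24 and RPS6 have an empty ssRNase replicate 2 row and no shading, while RPL3 has 3 and RPL4 has 4 shaded sites.

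The bases under sites were also set against the length of the mature mRNA, taking 1 transcript per gene. The bases covered in at least 1 of the 6 lists exceeded the length of the annotated mRNA with the longest coding sequence in 7 of the 10 genes. The ssRNase lists alone exceeded it in 6 genes and the dsRNase lists alone in 0. Where the sum exceeds the length, some site bases lie outside the exons of that transcript. In RPL3 they came to 2106 nt, against an mRNA of 1442 nt, and in RPL13A to 1851 nt, against 1181 nt. In RPL4, RPS6 and RPLP0 they came to 1801, 1049 and 965 nt, below mRNAs of 2769, 1387 and 1344 nt. Lengths of mRNAs are from GENCODE release 29. RPL24 was near parity, at 637 nt covered and an mRNA of 623 nt.

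The authors' score was used to rank sites within a list. That a higher score marks a stronger site is an assumption, since the scale is not stated. The median percentile of sites in the genes was 65.0, 60.6 and 68.9 with ssRNase and 71.5, 77.8 and 80.0 with dsRNase. The 10% of a list with the highest scores held 20.9%, 22.6% and 20.2% of their sites with ssRNase and 32.1%, 28.8% and 36.8% with dsRNase. Genes differed widely. In ssRNase replicates 2 and 3 RPL4 had the highest median percentile (90.0 and 90.1), and with dsRNase RPL24, RPL4 and RPL13A led in replicates 1, 2 and 3 (95.3, 90.9 and 97.8). The lowest medians with dsRNase were those of RPS3, RPL13A and RPSA, all on the plus strand, at 44.5, 39.2 and 37.1 in the same order of replicates. Many sites had tied scores, and the tied percentiles differed by strand. In ssRNase replicate 1, for example, ties lay at 6.35 in plus-strand genes and at 21.4 in minus-strand genes. Both strands were ranked together, and the part of strand in the differences between genes was not tested.

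Ribosomal protein genes have many processed copies in the genome, and GENCODE names 184 pseudogenes after these 10 genes. RPSA has 74 of them, RPL5 has 35 and RPS2 has 20, while RPL24 and RPS3 have 4 each. The handling of reads that match several places is not stated in the labels or file headers, and its part in these results was not tested.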

How the data were processed

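The authors made the lists from 12 libraries. Adapters were trimmed with cutadapt 0.9.5 and reads were aligned with TopHat2 2.0.9 on build hg19, per the submitters' processing notes. The names of the deposited lists give CSAR as the caller and 5% as its false discovery rate. Per the labels' protocols, abundant sequences were depleted from the libraries with a duplex-specific nuclease, and how far this lowered sites in these genes was not measured. The score of each site is the authors' deposited value on a scale not given in the sources used here. It was used only for ranks within a list, with both strands ranked together. The scores listed for merged sites, another deposited column, were not used.

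Members and lists were chosen with earlier results of these data known. Positions were read as 1-based and inclusive, as a few sites have equal start and end. Coverage is the percent of span bases under sites, each base counted once, and the share is those bases per 1000000 site bases of the list. Windows of 10000 bp that touch a member were left out. All 10 genes are named, and per gene the merged site with the most lists. For the 4 tested values (site length, position, recurrence, strand) ssRNase and dsRNase lists were set against each other by two-sided exact permutation tests, adjusted by the Benjamini-Hochberg method. Likeness to other genes and other ribosomal protein genes were not analysed here, since the annotation at hand is on GRCh38. The interval code was tested on 2000 simulated sets against a base-by-base count, with 0 wrong answers. Python 3.11.15, numpy 2.4.6, pandas 2.3.3 and matplotlib 3.10.9 were used.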

Additional observations from a re-analysis of the deposited data

How the results depend on the processing

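The lower ssRNase share of the lists held for 10 of 10 genes with any overlap in place of midpoints, on the gene's own strand and without any single replicate, and for 9 with the higher-scoring 50% of sites, where RPS3 overlapped. Random draws leave expected shares unchanged, so equal numbers of sites say nothing about this result. Coverage depended on list length: with 21561 sites drawn from every list (mean of 20 draws) 0 genes were covered more with ssRNase and 8 less, and the differences (ssRNase minus dsRNase) of RPS2, RPSA and RPS3 became -10.9, -0.898 and -1.27 percentage points. Fewer sites in the ssRNase lists produce this by construction. Leaving out each replicate in turn, 3 to 7 genes were covered more with ssRNase and 2 to 3 less. No share of windows is at hand for these coverage counts. The recurrence difference ranged from -23.3 to 7.12 percentage points, since a list left out also removes partners. It was -61.3 with equal numbers of sites, where thinned ssRNase lists share few sites (p = 0.1, exact permutation), and -0.748 with an overlap of 50% of the site. Without each replicate in turn, the other tested differences kept their direction, at 5.50 to 10.3 nt for length, -0.0711 to -0.0500 for position and -1.52 to -0.986 for strand. With the higher-scoring 50% of sites they were 9.50 nt, -0.0768 and -1.10. No pairing by replicate number was seen (correlations of same-numbered deviations 0.0175, -0.0631 and -0.0336, of other pairs -0.100 to 0.0926). This does not settle whether same-numbered libraries shared a culture or batch. With a replicate block the differences were the same, 8.17 nt, -0.0638, -6.97 and -1.19, and the exact permutation p was 0.25, the smallest possible, for all but recurrence (0.75).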
